A study of Canis lupus familiaris with 6 samples.

Results

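The proprotein convertases are the subject of this account: PCSK1, PCSK2, PCSK4, PCSK5, PCSK6, PCSK7, FURIN and MBTPS1, together with PCSK1N, which encodes the secreted inhibitor of PCSK1. The members were chosen by the gene symbol that the array design gives each probe. All 9 genes were on the array, with 14 probes, among 14227 named genes in all. The set was put together with the PCSK1 difference between the cultures already known, so its values in that contrast are given as a description. The number of members past the threshold used for all probes is given once, beside the share of all probes, and supports nothing.

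The arrays carried RNA of MDCK cells, an epithelial line from dog kidney. All 6 samples were β-cat ΔN/RasV12 cells, which stably hold mCherry-tagged β-catenin without its N-terminus (β-catenin Δ131) and make GFP-tagged RasV12, an active Ras, when tetracycline is given. They were grown alone (single culture, 3 arrays) or as the minority in a 10:1 mixture with cells that carry the β-catenin construct but no RasV12 (mix culture, 3 arrays), in both cases on collagen type I with 24 h of tetracycline. GFP-positive cells were then sorted from both groups, so that neither group lacked RasV12 or the β-catenin construct. The labels do not say whether replicates came from separate cultures, and p-values measure the spread between these samples, which may be technical.

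Proprotein convertases are serine proteases of the secretory pathway that cut precursor proteins, most of them after paired basic residues, and so release the mature hormone, growth factor, receptor or protease. PCSK1 and PCSK2 are known for the regulated secretory granules of endocrine and neural cells. FURIN, PCSK5, PCSK6 and PCSK7 work along the constitutive route that most epithelial cells use, PCSK4 is known from germ cells, and MBTPS1 (site-1 protease) cuts membrane-bound transcription factors such as the sterol regulatory proteins in the Golgi.

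Each value rests on one type of 60-base probe, so the probes that the results turn on are shown first, as the scanner files give them. PCSK1 and PCSK5 are the tested members whose groups did not overlap, FURIN had a measured and a dim probe, and PCSK1N is the inhibitor. Capitals mark the longest run of bases that a probe has in common with a probe of another member, which was 7 bases for PCSK1, 7 for PCSK5, 6 for each FURIN probe and 6 for PCSK1N.
PCSK1: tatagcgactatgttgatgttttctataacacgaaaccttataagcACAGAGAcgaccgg
PCSK5: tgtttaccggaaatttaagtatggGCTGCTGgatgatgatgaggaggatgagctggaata
FURIN, measured probe: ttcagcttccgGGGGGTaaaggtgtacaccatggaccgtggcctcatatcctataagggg
FURIN, dim probe: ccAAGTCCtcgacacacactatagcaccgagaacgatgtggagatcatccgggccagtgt
PCSK1N: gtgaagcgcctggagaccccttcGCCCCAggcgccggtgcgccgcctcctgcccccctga

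On CanFam3.1 these probes lie, in the same order, at chr3:13273974-13274033, chr1:82090692-82090751, chr3:53359147-53359206, chr3:53359508-53359567 and chrX:42030881-42030940. The array design assigns each to a transcript of its gene, and exon annotation was not used here. The genes of PCSK1, PCSK6 and FURIN share chromosome 3. GC content was 40.0% for the PCSK1 probe and 76.7% for the PCSK1N probe, the highest among the members.

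Signals are background-subtracted intensities. A signal counts as measured when the scanner software called it well above background. On the 6 arrays 61.1% to 65.7% of spots met this call, and the lowest signal that met it was 4.19 to 4.48 intensity units. Normalised log2 signal is log2 of the signal minus the 75th percentile of its array. Slide 1 held replicate 1 of both groups and slide 2 the other 4 arrays, and the slides differed in scanner resolution and software version, so differences within each slide are given beside the pooled ones. With the group in the model, 47.2% of the 26621 tested probes differed between slides.

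Marker genes of kidney epithelium were read in these cells. All 6 on the array (CDH1, EPCAM, KRT18, CDH16, PAX8 and CLDN2) had a probe that was well above background on every array. Other probes of CDH16, PAX8 and CLDN2 did not meet that call on every array. By its brightest probe 1 of the 6, CLDN2, was called higher in mix culture by limma. CDH1 was lower there with each of its probes, by log2 differences of -0.47, -0.46 and -0.60, and its groups did not overlap. It was not called (limma, adjusted p = 0.384 for the brightest probe). With the slide as a block its adjusted p in limma was 0.0444, where 7.2% of all probes were called. EPCAM, KRT18, CDH16 and PAX8 had overlapping groups by their brightest probes. The β-cat ΔN cells of the mixture are of the same line, so these markers cannot tell them from the sorted RasV12 cells.

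PCSK1, which makes the first cuts in many prohormones, was measured in mix culture alone. Its signal was 0.908, 2.89 and 1.73 intensity units in single cultures 1, 2 and 3, and none of these was well above background. In mix cultures 1, 2 and 3 it was 183, 127 and 121 intensity units, well above background on all 3 arrays. Every mix culture therefore stood far above every single culture, and the value of single culture 1 was a substitute that the scanner software writes for spots too dim to measure.

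Because PCSK1 was not measured in any single culture, its fold has only a lower bound. Set against the lowest signals that counted as measured, mix culture had at least 31.9-fold higher PCSK1. The normalised log2 signal as scanned was -6.77 ± 0.99 (SD, n = 3) in single culture and -0.42 ± 0.08 (SD, n = 3) in mix culture, a difference of 6.35 that depends on values within the background. It was 7.48 on slide 1, with 1 array of each group, and 5.79 on slide 2. Both slides showed the same direction. The spread was wider among the single cultures than among the mix cultures, but the single-culture values lie within the background. In these bulk RNA samples, more cells with PCSK1 RNA and more PCSK1 RNA per cell cannot be told apart.

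**Figure D1:**
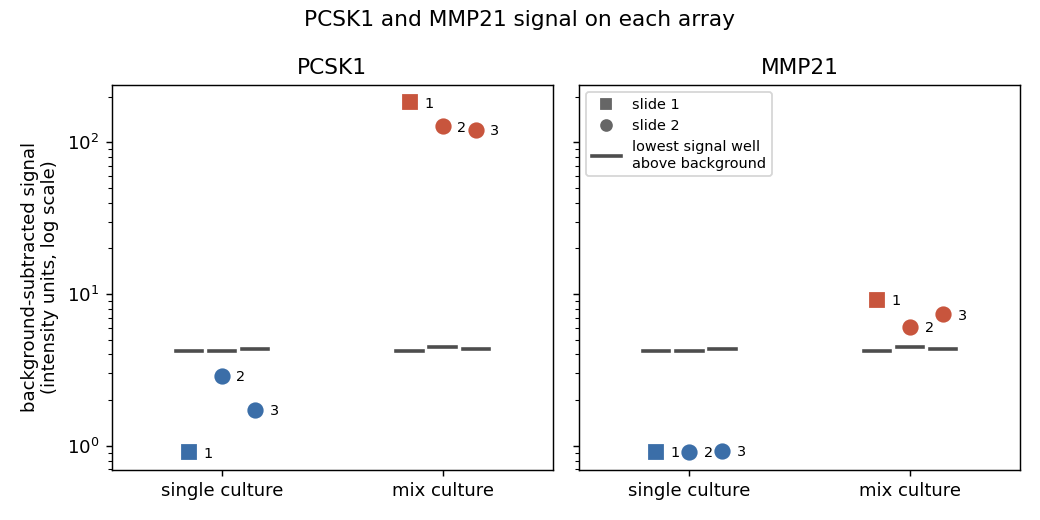
Background-subtracted signal (intensity units, log axis) of PCSK1 and of MMP21, a substrate of furin-type proteases, on each array; numbers are replicates, squares slide 1, circles slide 2, and short bars the lowest signal on that array that counted as well above background. All single cultures lie under the bars for both genes, and PCSK1 reaches 121 to 183 in mix culture against 6.09 to 9.14 for MMP21.

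PCSK2, the other granule convertase, was not measured in either group. Its signal was 3.88, 1.49 and 1.76 in single cultures and 4.16, 2.41 and 1.98 in mix cultures, on the same scale, and no array was well above background. No order of the groups can be read from such values. SCG5, the chaperone that PCSK2 needs to mature, was likewise not well above background on any array with any of its 3 probes.

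PCSK5, a constitutive-route convertase that processes growth factors and integrins, was the other tested member whose groups did not overlap. Its signal was 10.7, 10.2 and 10.5 in single cultures and 21.1, 14.6 and 21.2 in mix cultures. The lowest mix culture was above the highest single culture, both before and after scaling. The normalised log2 signal was -4.11 ± 0.14 (SD, n = 3) in single culture and -3.34 ± 0.37 (SD, n = 3) in mix culture, a ratio of 1.71, with a log2 difference of 0.77 (SE 0.22). The difference was 0.81 on slide 1 and 0.76 on slide 2.

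Among the remaining constitutive-route enzymes, FURIN and PCSK7 had overlapping groups and PCSK6 was too dim to order. FURIN, the convertase of the Golgi and cell surface in most cells, gave 23.4, 26.0 and 22.9 in single cultures and 24.9, 20.9 and 28.9 in mix cultures with its measured probe. The groups overlapped, with a log2 difference of -0.03 (SE 0.24). The other FURIN probe was well above background on 2 of 3 single cultures and 1 of 3 mix cultures, with signals from 3.46 to 9.66, and was not tested.

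PCSK7, a membrane-anchored enzyme of the trans-Golgi network, gave 72.8, 97.6 and 88.1 in single cultures and 92.8, 106 and 102 in mix cultures. After scaling the groups overlapped, and the log2 difference was 0.16 (SE 0.26). PCSK6, which processes TGF-beta family precursors, was not well above background on any array, with signals of 0.926 to 2.44 in all. Its mix cultures were listed under its single cultures, but values within the background have no order and no fold is given.

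PCSK4, the germ cell convertase, was well above background on all 6 arrays with both of its probes. The brighter probe gave 64.4, 52.3 and 53.5 in single cultures and 72.0, 74.1 and 54.7 in mix cultures, a log2 difference of 0.17 (SE 0.16). The dimmer probe gave a log2 difference of 0.32 (SE 0.26). The groups overlapped with either probe after scaling.

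MBTPS1, which releases sterol and stress transcription factors from membranes, was read by 4 probes, all well above background on every array. The brightest gave 843, 392 and 417 in single cultures and 748, 400 and 387 in mix cultures. Replicate 1 of both groups, on slide 1, stood above the rest, while the cultures overlapped. The log2 difference between cultures was -0.15 (SE 0.27) for this probe and between -0.22 and -0.03 for the other 3.

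PCSK1N encodes proSAAS, the granule protein from which the inhibitor peptide of PCSK1 is cut. Its signal was 351, 363 and 381 in single cultures and 295, 326 and 293 in mix cultures. As scanned every mix culture was lower, but after scaling the groups overlapped because of the slide difference. The normalised log2 signal was 1.01 ± 0.21 (SD, n = 3) in single culture and 0.69 ± 0.30 (SD, n = 3) in mix culture, a ratio of 0.80. The log2 difference was -0.33 (SE 0.21), or -0.43 on slide 1 and -0.28 on slide 2. PCSK1N lay below 0 on both slides, where PCSK1 lay far above it.

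**Figure D2:**
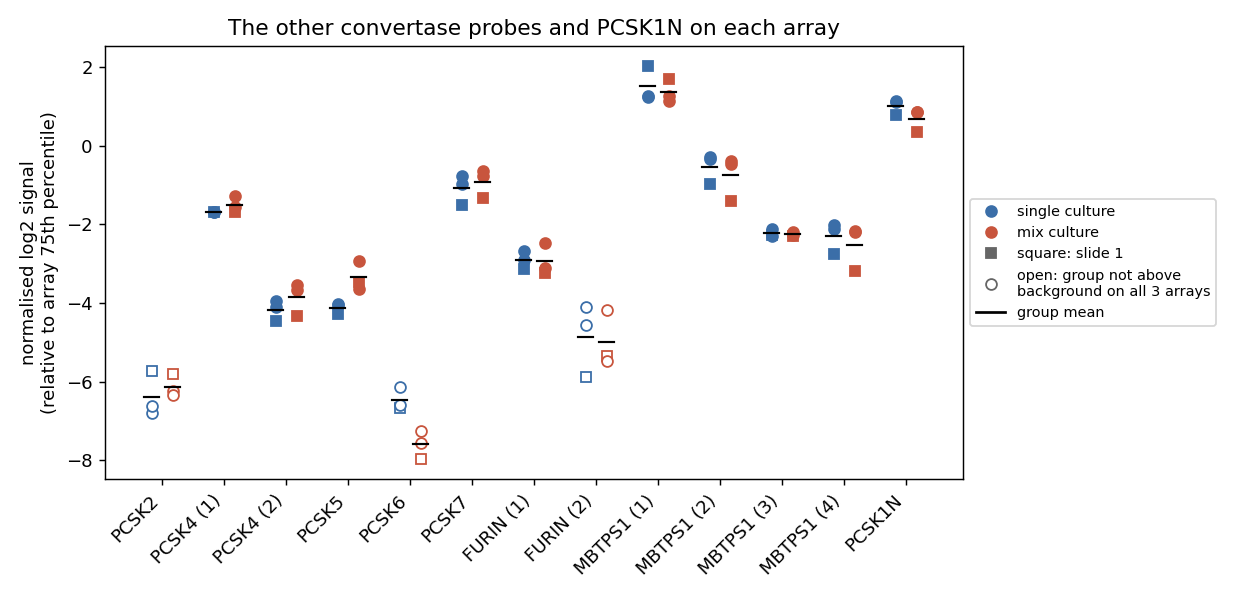
Normalised log2 signal (relative to the 75th percentile of each array) of the 13 probes of the members other than PCSK1, for single culture (blue) and mix culture (red); squares are slide 1, circles slide 2, lines group means, and open symbols a group not well above background on all 3 arrays. PCSK2, PCSK6 and the second FURIN probe are open, and PCSK5 is the filled probe whose groups lie apart.

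Of the 9 members, 7 had a probe that could be tested (all 3 arrays of one or both groups well above background), and 6 were well above background on all 6 arrays. 1 member was past an adjusted p of 0.05 in limma, PCSK1, where 0.883% of all tested probes were (0.815% higher and 0.0676% lower in mix culture). With the slide as a block and with the replicate number as a block 2 members were past it, PCSK1 and PCSK5, where 7.2% and 5.26% of all probes were. The groups did not overlap for 2 of the 7 tested genes, both with mix culture higher, beside 16.5% of all probes (7.85% with mix culture higher and 8.66% with it lower). By their brightest probes 4 members lay above 0 and 3 below, with a median log2 difference of 0.16 against -0.05 over all probes. The members were chosen with this contrast known, and nothing is read from these counts.

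**Figure D3:**
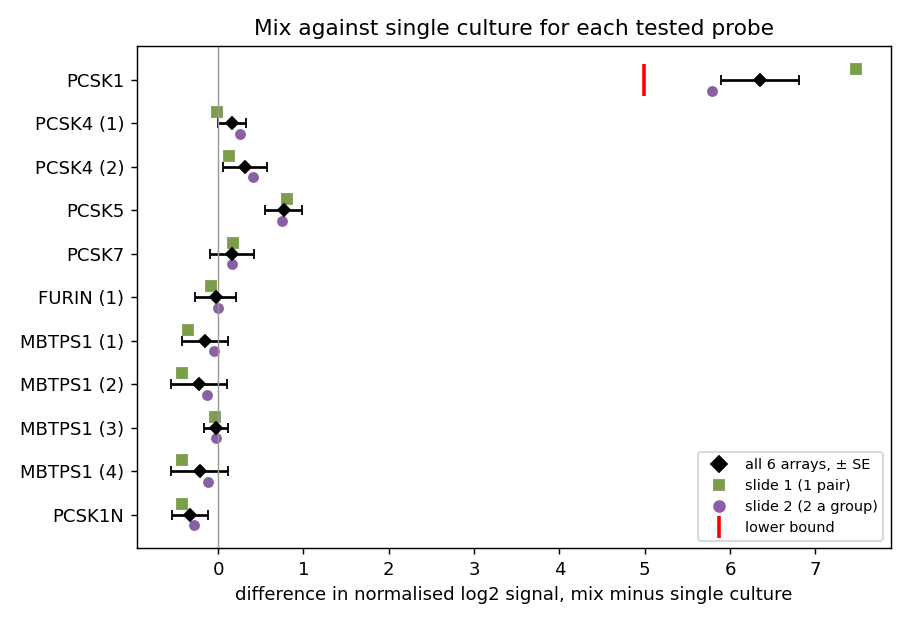
Difference in normalised log2 signal (mix minus single culture) for each of the 11 tested member probes, with diamonds and bars for all 6 arrays ± SE, squares for slide 1 and circles for slide 2. PCSK1 stands at 6.35 with its lower bound (red) at 4.99, and PCSK5 lies near 0.77 on both slides. All other diamonds lie between -0.33 and 0.32, and some points of a single slide lie outside that range.

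The slide did not enter the choice of members, and the difference between slides was tested with the group in the model. Of 7 tested members, 3 differed, beside 47.2% of all probes. PCSK7 was higher on slide 2 by 0.62 on the log2 scale (SE 0.11, limma, adjusted p = 0.00337) and PCSK1N by 0.44 (SE 0.11, adjusted p = 0.0111). MBTPS1 was lower on slide 2 with its brightest probe (-0.63, SE 0.12, adjusted p = 0.00381), yet 2 of its other probes were higher there, by 0.83 and 0.84 (adjusted p = 0.0011 and 0.00112), and the last differed by 0.07 (adjusted p = 0.614). Probes of a single gene thus disagreed in the direction of the slide difference, while all 4 lay below 0 for the culture difference. For PCSK1 the fitted slide difference of 0.73 (SE 0.36, limma, adjusted p = 0.131) takes in single-culture values within the background, so nothing is read from it. In mix culture, where PCSK1 was measured, its normalised log2 signal was -0.34 on slide 1 and -0.51 and -0.41 on slide 2.

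To see whether the partners of the convertases moved as well, 108 genes in 5 lists were followed: granule proteins, prohormones, substrates of furin-type enzymes, the site-1 protease pathway, and inhibitors and sorting factors of FURIN. On the array were 92 of them, and 60 had a testable probe. limma called 1 of the 60, MMP21, or 1.67%, beside 0.883% of all probes, and 0 where a probe had to be well above background on each array. Of the 60 differences 15 lay above 0 and 45 below, with a median of -0.14 on the log2 scale, beside 11192 above and 15429 below and a median of -0.05 over all tested probes.

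MMP21 is a matrix metalloproteinase whose proprotein is a substrate of furin-type enzymes, and it is a gene that the study itself picked on these arrays, so it is no independent evidence. Its signal was 0.912, 0.916 and 0.929 in single cultures, none of them well above background, and 9.14, 6.09 and 7.36 in mix cultures. Mix culture had at least 1.68-fold higher MMP21. MMP21 passed the filter on dim probes through mix culture alone, so its call in limma (adjusted p = 0.00101) rests on single-culture values within the background and supports no difference beyond that bound. Both PCSK1 and MMP21 were thus measured in all mix cultures and in no single culture.

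No other substrate of furin-type enzymes among the 36 tested was called by limma. With MMP21, 10 of the 36 had an unadjusted p under 0.05, a larger share than the 2318 of all 26621 probes. The list was chosen with earlier results known, so nothing is read from that share. With the slide as a block, 3 of the 36 were higher and 7 lower, beside 3.98% and 3.22% of all probes. With the replicate number as a block 2 were higher and 6 lower. Beside these, 861 and 538 of the 26621 probes were higher and lower with that block, or 5.26% in either direction. MMP21, whose single-culture values lie within the background, is among the higher substrates with either block. GDF11, a TGF-beta family ligand, gave 31.8, 28.0 and 20.3 in single cultures and 84.7, 48.7 and 56.9 in mix cultures. The groups did not overlap, with a ratio of 2.24 and a log2 difference of 1.17 (SE 0.21, limma, adjusted p = 0.0673, or 0.00575 with the slide block).

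PDGFA, a growth factor made as a precursor, went the other way, with 32.9, 26.4 and 28.4 in single cultures and 19.0, 18.6 and 11.6 in mix cultures. Its log2 difference was -0.93 (SE 0.18, limma, adjusted p = 0.0828, or 0.00832 with the slide block). BMP4, another TGF-beta family ligand, differed by -0.80 (adjusted p = 0.349, or 0.0247 with the slide block), and the integrin subunit ITGAV by -0.72 (adjusted p = 0.563, or 0.00866). Substrates that passed the blocked test lay on both sides of 0.

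The granule proteins, which handle peptides together with PCSK1, gave no call in limma among 7 tested genes, and 0 at an unadjusted p under 0.05, with a median log2 difference of -0.05. CPE, the carboxypeptidase that trims basic residues after the convertases have cut, was well above background on every array, with 50.2, 24.5 and 21.9 in single cultures and 66.9, 24.1 and 18.7 in mix cultures. Its log2 difference was -0.01 (SE 0.40, limma, adjusted p = 0.998). VGF, a granin-family precursor, was also well above background on every array, at 42.2 to 76.2, with a log2 difference of -0.10 (SE 0.43, adjusted p = 0.981). PTPRN, a granule membrane protein, was so with its brighter probe on 3 of 3 single cultures and 2 of 3 mix cultures. CHGB, SCG2 and SCG3, other granins, were not well above background on any array.

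The prohormones, on which PCSK1 and PCSK2 act, gave no call in limma among 6 tested genes, and 0 at an unadjusted p under 0.05, and 14 of the 20 on the array could not be tested. PENK, the enkephalin precursor, was bright in both cultures with 1 of its 4 probes, at 6829, 2262 and 2438 in single cultures and 7807, 1846 and 2067 in mix cultures. Its other 3 probes were not well above background on any array, so the transcript that the bright probe reads is uncertain. The log2 difference of the bright probe was -0.18 (SE 0.52, limma, adjusted p = 0.978). POMC, a classical PCSK1 substrate, was among the prohormones not tested.

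The 7 tested genes of the site-1 protease pathway gave no call in limma, 0 at an unadjusted p under 0.05, and a median log2 difference of -0.10. With the slide block 1 was called, GNPTAB, whose precursor MBTPS1 cuts, at 0.49 (SE 0.24, limma, adjusted p = 0.673, or 0.0412 with the block), where 7.2% of all probes were called. With the replicate block it was not called (adjusted p = 0.0716). The 4 tested inhibitors and sorting factors of FURIN likewise gave no call, 0 at an unadjusted p under 0.05, and a median of -0.20. GBP2 and GBP5, inhibitors of FURIN, were not among the named symbols, and are not analysed here.

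**Figure D4:**
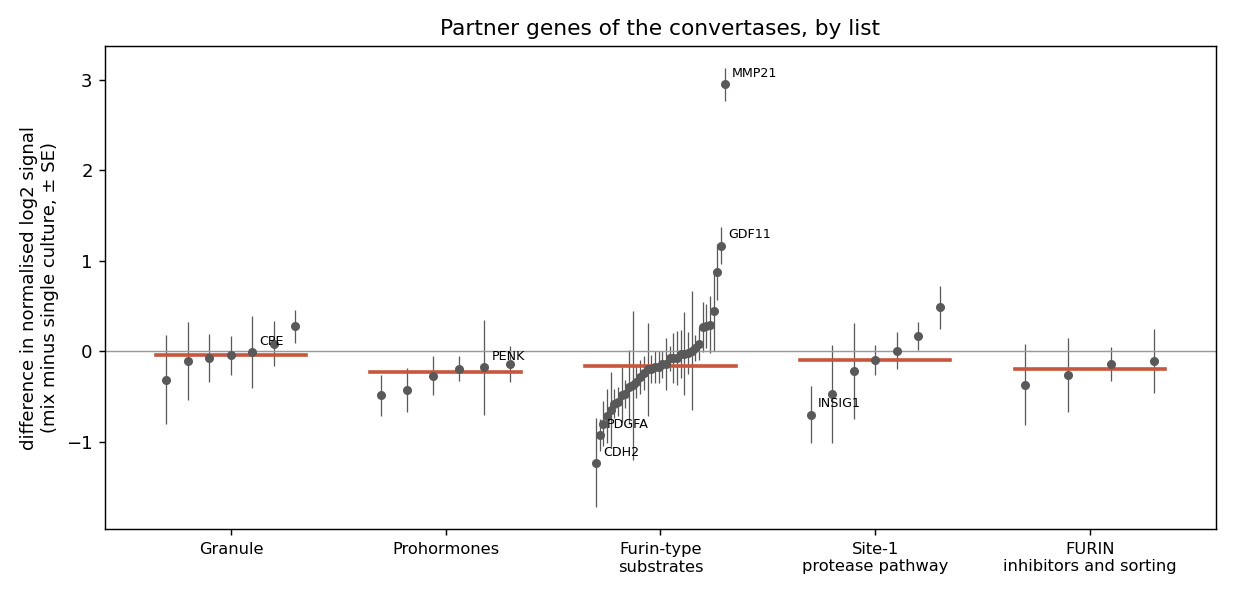
Difference in normalised log2 signal (mix minus single culture) of the 60 tested partner genes by list, each point a gene at its brightest tested probe with its SE and red lines the list medians. MMP21 and GDF11 are drawn highest, and the list medians lie between -0.23 and -0.05. The MMP21 point rests on single-culture values within the background. Its lower bound, not drawn, is 0.74, under the GDF11 difference of 1.17.

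PCSK1 is known from endocrine cells, so markers of such cells were read. All 5 neuroendocrine markers on the array (CHGB, SYP, NEUROD1, SCG2 and SCG3) stayed under that call on all 6 arrays, with summed signals of 5.82 to 6.28 in single culture and 6.04 to 8.74 in mix culture. Of 5 leukocyte markers 4 were well above background, while PTPRC, which defines leukocytes, was not on any array. The summed leukocyte signal was 260 to 380 in single culture and 255 to 385 in mix culture. None of these lists, nor those of fibroblasts and endothelium, held a gene called between the cultures, and their part in the PCSK1 difference was not tested.

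The genes whose pattern over the 6 arrays was most like that of PCSK1, among 10163 named genes with a tested probe, were RNF213, a large ubiquitin ligase (Pearson r = 0.999), DDX58, the RNA sensor RIG-I (0.998), BCHE, butyrylcholinesterase (0.995), IFIT1, an interferon-induced protein (0.995), and TLR3, a receptor for double-stranded RNA (0.994). The PCSK1 values of the single cultures are within the background, and the 2 groups of 3 arrays set most of each correlation, so they describe likeness alone. The log2 differences were 3.26 for RNF213, 2.22 for DDX58, 3.91 for IFIT1 and 1.26 for TLR3, all measured on all 6 arrays. BCHE was measured on 3 of 3 mix cultures and 1 of 3 single cultures, and no size is given for it.

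The genes next to PCSK1 on chromosome 3 were read as well, within 1 Mb on either side of its probe, a window set after the PCSK1 value was known. It held 43 other probes. Of these 30 were tested and 23 lay above 0, beside 11192 of all 26621 tested probes. The median log2 difference of the 30 was 0.43, beside -0.05 over all tested probes. Some genes had several of these probes, so the 30 are not separate readings. Among the 11 named genes 8 lay above 0 and 3 below by the brightest probe.

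ELL2, a transcription elongation factor, was the called neighbour, 1 of 11. Its 3 probes differed by 1.67 to 1.88 on the log2 scale (limma, adjusted p = 0.0165 to 0.0416), and the percentage of probes called over the array was 0.883. With the slide block 5 of 11 were called and with the replicate block 4 of 11, where 7.2% and 5.26% of all probes were. CAST, the inhibitor of calpain proteases, differed by 0.53 to 0.87 over 4 probes, GLRX, glutaredoxin, by 0.62 and 0.90, and ERAP1, the peptidase that trims antigen peptides, by 0.67 and 0.48. LNPEP, a neighbour on the ERAP1 side, differed by -0.07, and RHOBTB3, on the ELL2 side, by -0.12 to 0.28 over 3 probes.

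**Figure D5:**
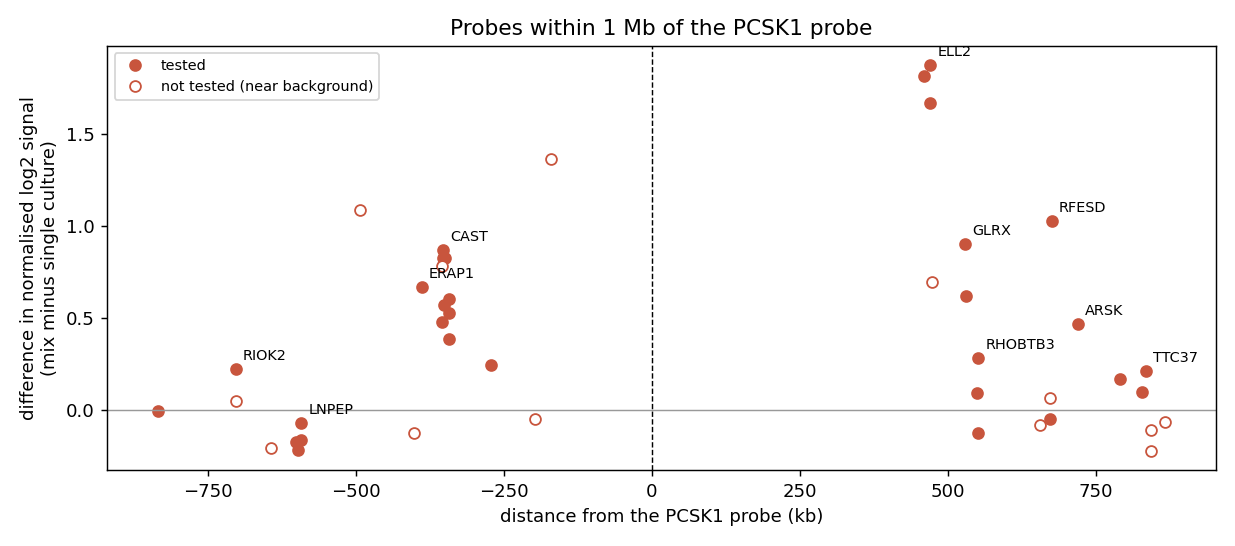
Difference in normalised log2 signal (mix minus single culture) of the 43 probes within 1 Mb of the PCSK1 probe, against their distance in kb; filled points were tested, open points were too near background, and the dashed line marks PCSK1, which is not drawn. ELL2 stands highest at 1.67 to 1.88, and LNPEP lies just under 0.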

How the data were processed

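RNA of β-cat ΔN/RasV12 MDCK cells was hybridised to Agilent canine arrays of one colour, 3 of single culture and 3 of mix culture, grouped by sample title. The scanner files deposited by the authors hold spot intensity on a linear scale, and per the file headers Agilent Feature Extraction (11.5.1.1 for slide 1, 12.1.1.1 for slide 2) had subtracted background without scaling between arrays. A further table deposited by the authors holds log2 values, whose steps are not given in the sources used here. Set against the scanner files, its probes were centred within each slide, with column medians of -0.02 to 0.02, and its columns for mix cultures 2 and 3 followed the scanner file of the other (correlations 0.999 and 0.993, against 0.457 and 0.459 for their own). It served as an alternative.

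From the scanner files, flagged spots (5 to 9 per array) were dropped, spots of one of the 43603 probes were averaged, and log2 signal minus the 75th percentile of its array was compared with limma 3.58.1 in R 4.3.3 (two-sided, Benjamini-Hochberg over 26621 probes, call at an adjusted p under 0.05), which called 235. A probe was tested when well above background on all arrays of at least 1 group, and a gene was read by its brightest tested probe. No spot was saturated. The fit was tested on simulated data. A lower bound sets the bright group against, per dim array, the higher of its lowest well-above-background signal and the signal of the probe. With 6 arrays, their number limits the precision.

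The members, partner lists, marker lists and naming rule were chosen with earlier results of these data known. Named were all members, the called partner genes (at most 5 per list), MMP21, GBP2, GBP5, SCG5 and CPE, and the 5 genes most like PCSK1; partner genes that passed only a blocked test, PENK, POMC and the chromosomal neighbours were chosen after their values were seen. All 9 members matched a RefSeq gene table (UU_Cfam_GSD_1.0) by symbol, used for names alone. Same-numbered arrays deviated together from their group means (correlations 0.801, 0.53 and 0.572), and the replicate block took the numbers as pairs. The crossed pairing of replicates 2 and 3 gave higher values, 0.61 and 0.632, so the correlations do not favour the numbered pairs on slide 2. Replicate 1 is the only pair on slide 1, so its correlation cannot be told apart from the slide difference.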

Additional observations from a re-analysis of the deposited data

How the results depend on the processing

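PCSK1 stayed higher in mix culture under every alternative in which it was tested. It was chosen for this difference and passed the filter through mix culture alone, so nothing is read from that. Its log2 difference of 6.35 was 7.48 on slide 1 alone and 1.91 with normexp and quantile normalization, whose offset of 50 raises dim signals by construction, and 5.83 to 6.81 with 1 array left out. These sizes depend on values within the background. Its lower bound of 4.99 was 4.89 to 5.05 with 1 array left out and 4.86 on slide 2 alone. The PCSK5 difference, 0.77 in the main fit, was 0.13 with normexp and quantile normalization. The count of convertase genes called, 1, was 2 with the slide block, 2 with the replicate block and 2 with the crossed replicate block (PCSK1 and PCSK5), and 3 with the authors' table, which added PCSK1N. It was 0 where a probe had to be well above background on each of the 6 arrays, a filter that leaves PCSK1 untested, 0 with the methods' t-test after Benjamini-Hochberg adjustment (where PCSK1 and PCSK5 had unadjusted p under 0.05), and 1 with any array left out. The count of partner genes called, 1, was 11 with the slide block, 8 with the replicate block, 8 with the crossed replicate block, 17 with the authors' table, 5 on slide 2 alone, and 0 with the all-array filter, normexp and the methods' t-test. The count over all probes, 235, was 1917 with the slide block, 1399 with the replicate block, 1447 with the crossed replicate block, 143 with the all-array filter, 134 with normexp, 4077 with the authors' table, 998 on slide 2 alone and 8 with the methods' t-test (2590 at an unadjusted p under 0.05). With 1 array left out it ran from 92 to 247, with 92 without single culture 3, 92 without mix culture 2 and 99 without mix culture 3. The cause of these shifts was not tested. The authors' table was already centred within each slide and was fitted with no slide term. Its p-values do not allow for that centring, so its counts are not on a par with the others. The number of members that differed between slides, 3, was 3 or 4 under 4 alternatives chosen after seeing the data. Below the lowest signal well above background, no level of PCSK1, PCSK2, PCSK6 or MMP21 can be ordered.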
